A study of Mus musculus with 16 samples.

Results

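The H3K27ac landscape of resting macrophages was read from the peak list of untreated primary bone marrow-derived macrophages (BMDMs), called Control. It held 43533 peaks, of 171291 peaks in the 4 lists of the series, and every peak of the list was kept. The cells were grown from bone marrow of C57Bl6 mice 8 to 12 weeks old in medium with 20% serum and L-929 cell-conditioned medium, which supplies the macrophage growth factor CSF1. ChIP-seq with an antibody to H3K27ac, and sequencing of input DNA, were done in 2 replicates of each of 4 conditions: Control; IFNγ (100 ng/mL, 1 h); the PARP inhibitor PJ34 (20 µM); and PJ34 given 1 h before IFNγ. Cultures made this way are enriched for macrophages and are not sorted. Each deposited list joins both replicates of its condition, so values of single replicates were not analysed here and no difference between lists has a replicate check. The files give no read counts and the depth is unknown. The lists of the treated cells held 40708 peaks (IFNγ), 44090 (PJ34) and 42960 (IFNγ and PJ34), and they serve here to show which Control peaks were called again and how wide peaks were in each list.

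Acetylation of histone H3 at lysine 27 is laid down by the acetyltransferases p300 and CBP on nucleosomes next to active promoters and enhancers. In macrophages, enhancers are opened by the lineage factor PU.1 together with AP-1, C/EBP and RUNX proteins, which bind the DNA between nucleosomes. Many promoters of genes used by all cells are instead CpG islands bound by factors such as ETS proteins, NRF1, SP/KLF proteins and YY1.

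The sequences below show where such motifs lay. They were read from GRCm38.p6, the assembly behind mm10, and are printed 5′ to 3′. For distal peaks, each is the 100 bases around a motif that lay 150 to 350 bp from the summit, the highest point of the peak. The peaks were high-ranked, had the summit over 1 kb from every start, and were taken by rank from peaks not already shown for another motif. The forward strand is printed. Peaks are placed by summit: those at Irf2 and Ehbp1l1, with summits 1115 bp and 1150 bp from the nearest start, also cover that start. None of these windows overlapped an annotated exon, and the capitals mark the motif.
Irf2 intron, chr8:46741129-46741228, PU.1 motif: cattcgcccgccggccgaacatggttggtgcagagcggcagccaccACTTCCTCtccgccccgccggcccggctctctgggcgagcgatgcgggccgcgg
Between Ankdd1a and Plekho2, chr9:65541791-65541890, AP-1 motif: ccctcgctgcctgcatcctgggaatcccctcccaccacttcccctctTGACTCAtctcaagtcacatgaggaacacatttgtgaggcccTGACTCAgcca
Ehbp1l1 intron, chr19:5724782-5724881, MAF-AP-1 motif: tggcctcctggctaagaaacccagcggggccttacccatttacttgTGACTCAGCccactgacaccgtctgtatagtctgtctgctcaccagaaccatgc
Ppp1r21 intron, chr17:88551586-88551685, PU.1-IRF motif: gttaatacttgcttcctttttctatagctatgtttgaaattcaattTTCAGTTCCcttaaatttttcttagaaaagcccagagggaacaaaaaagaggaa

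For promoters, the 100 bases before the gene start of a high-ranked promoter peak, each gene shown for 1 motif, are given in the direction of the gene, again with no annotated exon in them. All of them were at genes with a peak among the 226 highest-ranked of the list.
Sp3, chr2:72980447-72980546, minus strand, ETS motif: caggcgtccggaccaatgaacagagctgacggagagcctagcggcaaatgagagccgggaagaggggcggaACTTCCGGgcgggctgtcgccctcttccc
Msl2, chr9:101074001-101074100, plus strand, NRF1 motif: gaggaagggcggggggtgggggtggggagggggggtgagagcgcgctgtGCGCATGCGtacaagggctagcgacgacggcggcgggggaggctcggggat
Sirpa, chr2:129592735-129592834, plus strand, SP/KLF motif: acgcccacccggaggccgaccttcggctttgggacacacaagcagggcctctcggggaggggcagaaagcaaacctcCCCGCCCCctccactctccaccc
Oxsr1, chr9:119322428-119322527, minus strand, YY1 motif: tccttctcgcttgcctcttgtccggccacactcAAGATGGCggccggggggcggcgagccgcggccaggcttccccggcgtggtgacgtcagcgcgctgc

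The Control peaks covered 52.6 Mb in all. Their width ran from 191 bp to 24047 bp with a median of 732 bp, and their fold enrichment over the local background ran from 1.63 to 154 with a median of 6.12. Most peaks were far from promoters. With a promoter peak defined by a summit within 1 kb of the annotated 5′ end of a protein-coding gene, 10476 peaks (24.1%) were promoter peaks and 33057 were distal. Of the distal peaks, 3061 had the summit within 1 kb of another annotated transcript start of any gene type. The other 29996 (68.9% of the list) had it over 1 kb from every annotated start. Here and below this distance is that of the summit, and a broad peak so placed can still cover a start. By place, 17608 summits (40.4%) were in introns, 13805 (31.7%) between genes and 1644 (3.78%) in exons. The summits just inside and just outside the limit, at 1000 bp and 1001 bp, belonged to Gnai2 and Gpr132.

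Strength divided the list into promoters and the rest. When the peaks were ranked by the deposited score and cut into 10 equal parts, 72.6% of the strongest decile were promoter peaks (95% exact binomial interval 71.3 to 73.9), 53.7% of the next decile, 15.2% of the fifth and 4.89% of the lowest (4.27 to 5.58). Promoter peaks had a median fold enrichment of 20.8 and a median width of 1413 bp, against 4.95 and 604 bp in distal peaks. The ratio of the median widths was 2.34. Median width was 2708 bp in the strongest decile and 328 bp in the lowest, and score and width were correlated across peaks (Spearman 0.845 over 43533 peaks, which share libraries and a peak caller). Among distal peaks, distance to the gene made little difference to strength: the median fold enrichment was 4.92 at 1 to 10 kb from a start, 5.07 at 10 to 50 kb, 4.90 at 50 to 100 kb and 4.82 beyond 100 kb. All intervals given here reflect counting error alone. They take peaks to be independent, which neighbours are not.

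**Figure D1:**
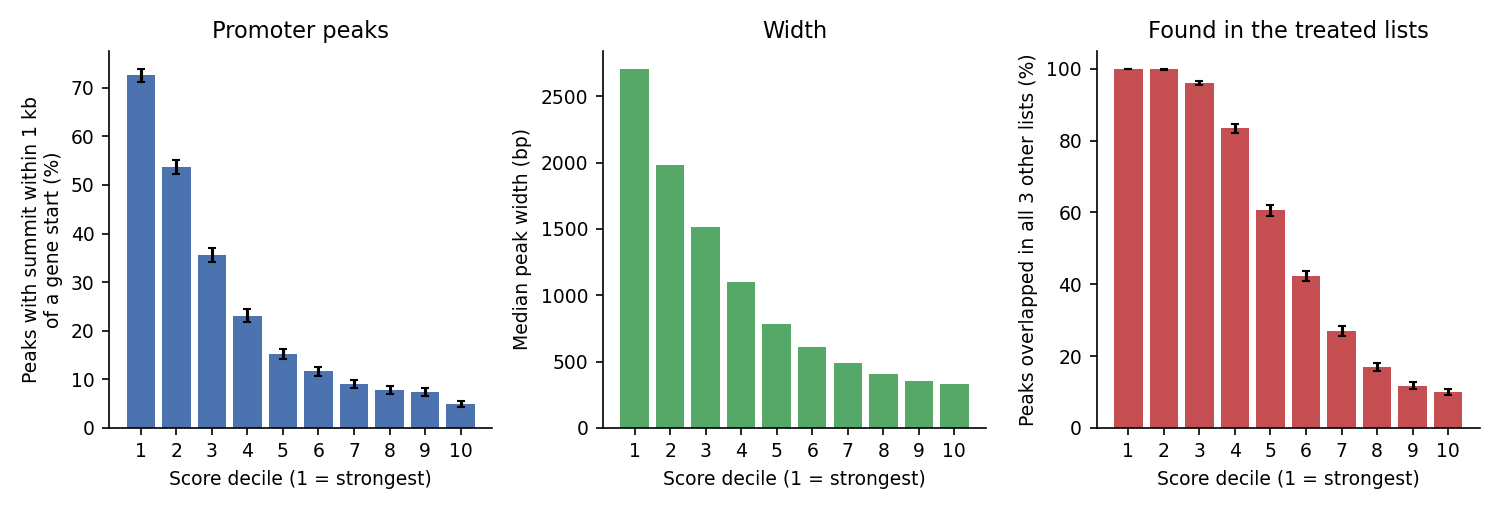
Share of promoter peaks (%), median peak width (bp) and share of peaks overlapped by a peak in all 3 treated lists (%), for each decile of the Control list by score (1 = strongest); bars in the outer panels carry exact 95% binomial intervals. All 3 measures are lower toward the weak end of the list, with 72.6% promoter peaks in the strongest decile and 4.89% in the lowest.

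Peaks were spread unevenly over the chromosomes. Chromosome 11 had 26.6 peaks per Mb, chromosome 19 had 23.6 and chromosome 17 had 20.9, whereas chromosome X had 6.85 and chromosome Y had 10 peaks in all. Per protein-coding gene the autosomes ranged from 1.30 peaks on chromosome 7 to 2.75 on chromosome 12, and the X had 1.24. The median fold enrichment on the X, 6.32, was within the range of the autosomes.

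Summits at promoters avoided the start itself. Of the promoter summits, 74.8% (73.9 to 75.6) lay downstream of the gene start, with a median position of 192 bp downstream. The 50 bp bins with most summits were 200 to 250 bp (1663 peaks) and 150 to 200 bp (1618 peaks) downstream. Another, lower group had its maximum 300 to 350 bp upstream (352 peaks). The 50 bp before the start held 68 summits. In the strongest decile 83.3% of promoter summits were downstream (82.0 to 84.6), against 53.6% (51.2 to 55.9) in the weaker 50% of the list, where both sides were used about equally.

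**Figure D2:**
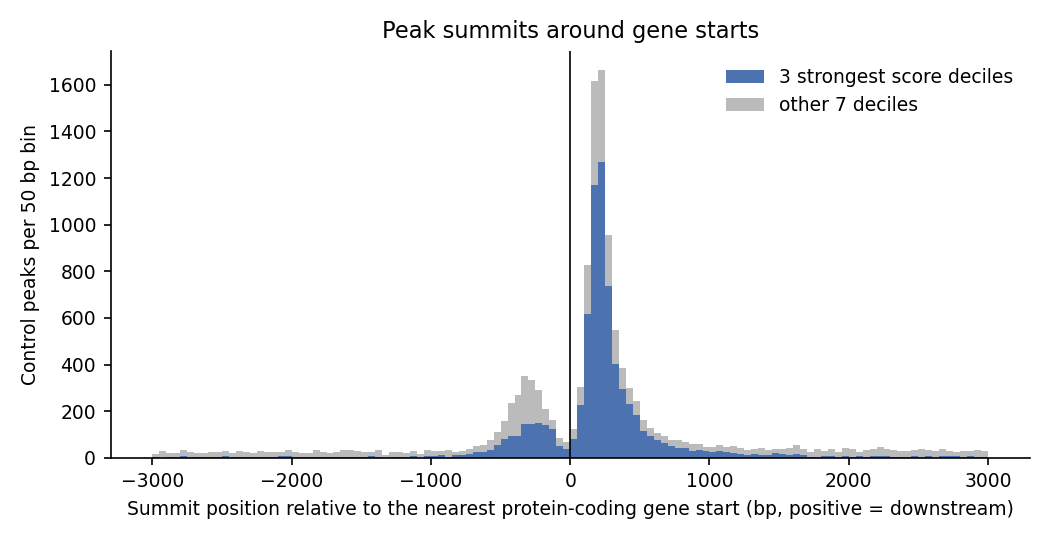
Number of Control peak summits per 50 bp bin by position relative to the nearest protein-coding gene start (bp, positive downstream), stacked as the 3 strongest score deciles and the other 7. Summits form a tall group at 150 to 250 bp downstream and a low one near 300 bp upstream, and few lie at the start.

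CpG content of the promoter separated genes with and without a peak. Of the 21911 protein-coding genes, 10103 had a promoter peak (46.1%). The share was 78.0% (77.1 to 78.8) of the 10059 CpG-rich promoters, in which CpG was observed at 0.6 times or more of its expected frequency in the 1 kb around the start. It was 44.1% of the 3077 promoters of intermediate content and 10.3% (9.66 to 11.0) of the 8775 CpG-poor ones, below 0.4. The 903 CpG-poor promoters with a peak had a lower median fold enrichment than the CpG-rich ones (15.0 against 27.4), but 8.31% of them carried a peak of 5 kb or more, against 3.52% of the CpG-rich promoters with a peak. Ribosomal protein genes were CpG-rich in 72 of 80 cases, and macrophage markers were CpG-poor in 22 of 25.

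The highest-ranked peak of the list lay at Flcn, which encodes folliculin, a regulator of lysosomal signalling to mTORC1. This peak (chr11:59808517-59810921) had a score of 1000, a fold enrichment of 154 and a width of 2405 bp. It was followed among promoter peaks by Sirpa, the macrophage receptor for CD47 (101.9-fold, 14183 bp wide), and Atp6v0c, the proteolipid ring of the vacuolar proton pump (119-fold, 7117 bp). Next came Cdc42, a small GTPase of the actin cytoskeleton (139-fold), Rbm39, a splicing factor (105-fold), and Pcbp1, an RNA-binding protein and iron chaperone (116-fold). The other members of the first 10 were Ptprj, a receptor tyrosine phosphatase (135-fold), Cltc, the clathrin heavy chain (102.4-fold), Marcks, a membrane-bound actin regulator (92.7-fold), and Ep300, the acetyltransferase p300 that itself writes H3K27ac (125-fold). Each of the 10 was overlapped in every treated list by a peak ranked among the strongest of that list, at percentiles of 99.13 or more.

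Of the 10 highest-ranked distal peaks, 7 had their summit within 1 kb of an annotated start other than a protein-coding gene's outermost one. The first, at Csk, the kinase that restrains Src-family kinases, was 8.15 kb inside the gene record but 170 bp from another Csk transcript start (134-fold). The peak at Bri3 lay 271 bp from another start of the same gene (127-fold), and the peak nearest to Srsf12 lay 354 bp from a transcript start of Pnrc1, a nuclear receptor coactivator (98.97-fold). A 17112 bp peak at Zeb2, a repressor needed for macrophage identity, had its summit 4.89 kb inside the gene and 19 bp from the start of the antisense transcript Zeb2os (119-fold). Summits named by Setd1b, Mllt6 and Epc1 lay at starts of non-coding transcripts.

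Of the remaining members, the highest was in Spi1, the gene of PU.1 (chr2:91095745-91102382, 6638 bp, 124-fold), with its summit in an intron 14.8 kb from the start and 1061 bp from another transcript start. The promoter peak of Spi1 was also strong (129-fold, 10976 bp). The peak in an intron of Bicral, a chromatin remodelling subunit, was 94.4-fold enriched. Beyond these 10, the strongest peak with a summit over 1 kb from every start was named by Klf6, a zinc finger factor of activated macrophages (59.9-fold, 14189 bp). Its summit lay 1.53 kb from the start of Klf6, which the peak also covered. The next were named by Anp32a (112-fold), Ankdd1a (84.2-fold), Clec2d (63.7-fold) and Clic1 (82.2-fold).

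A 12590 bp peak in the Vmp1 and Tubd1 region (chr11:86574465-86587054) had rank 19 in the whole list and 90.1-fold enrichment. Its nearest protein-coding start, Tubd1, was 40.9 kb away, but it spanned the gene of microRNA miR-21a, with the summit 1765 bp from the mature sequence. RefSeq gives that sequence on GRCm38.p6 at chr11:86584120-86584141, minus strand. The capitals mark the seed, bases 2 to 8, with which the microRNA pairs to its targets.
mmu-miR-21a-5p: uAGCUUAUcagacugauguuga

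A small share of the peaks was very broad. In all, 939 peaks (2.16%) were 5 kb or wider, of which 370 were promoter peaks and 425 had the summit over 1 kb from every start. The broadest was at Mcl1, an anti-apoptotic BCL2 family member on which macrophage survival depends (chr3:95641758-95665804, 24047 bp, 79.7-fold). Next came a 23309 bp intergenic peak named by Ankdd1a (chr9:65532995-65556303), which holds the AP-1 window printed above, then peaks in Sh3bp2, an adaptor of SYK signalling (19964 bp), and Fancc (19682 bp). The peak of 19665 bp at Ctsd, the lysosomal protease cathepsin D, was 49.9-fold enriched. The others of the first 10 were named by Tprg (17835 bp), Lrp1, an endocytic receptor of apolipoproteins (17739 bp), Fnip2, a folliculin partner (17475 bp), and Zeb2 (17142 bp and 17112 bp). A nearest start is only a position: relative to the start that names them, and negative where upstream, the Tprg peak lay at -227 kb, the Fancc peak at 244 kb and the first Zeb2 peak at -1248 kb.

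Peaks gathered in stretches. Peaks were joined as is usual for stretches of enhancers, the widest gap joined being 12499 bp and the narrowest left open 12501 bp, and the list formed 15927 stretches, of which 6784 were single peaks and 557 held 10 or more. The 2108 stretches with most sequence under peaks, 13.2% of all, held 50% of all bases under peaks. The richest stretch covered the CC chemokine cluster (chr11:83529327-83675751), with 40 peaks and 73.8 kb under peaks around Ccl3, Ccl5, Ccl6 and Ccl9. The next lay at the chemokine receptor genes Ccr2 and Ccr3 on chromosome 9 (31 peaks, 69.5 kb) and at Ptafr, the platelet-activating factor receptor (40 peaks, 66.7 kb). Klf6 (27 peaks, 59.7 kb) and Zfp36l2, an mRNA decay factor (28 peaks, 58.1 kb), stood in stretches of their own. Tns3, a focal adhesion protein (35 peaks, 58.1 kb), the miR-21a region (15 peaks, 57.9 kb) and Fth1, the ferritin heavy chain (19 peaks, 57.5 kb), followed. The last of the first 10 were H2-D1, an MHC class I gene (23 peaks, 56.8 kb), and Ankdd1a with Plekho2 (11 peaks, 55.2 kb).

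The genes to which most peaks were nearest were Zeb2 (79 peaks), Cited2, a p300/CBP-binding regulator of macrophage activation (57), Nrp1 (55), Adgrl2 (54), Klf6 (52), Lpp (52), Tns3 (50), Nfkbiz, a nuclear IκB protein (48), Maf (44) and Tnfaip3, the NF-κB inhibitor A20 (44). Most of these counts came with long stretches of sequence nearest to the gene. Adgrl2 had 2293 kb and Zeb2 1943 kb, which gave 2.36 and 4.07 peaks per 100 kb, against 1.60 over the genome. Tnfaip3 and Nfkbiz were the densest, with 17.2 and 16.1 peaks per 100 kb over 256 kb and 299 kb. Within 50 kb of the start, Cap1, an actin regulator, Il10ra, the IL-10 receptor, and Tnfrsf1b, TNF receptor 2, had most peaks (29 each). The median gene had 3 and 6350 genes had none.

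The label of the cells was checked against marker genes. Of 25 macrophage markers, 19 had a promoter peak (76.0%, interval 54.9 to 90.6), and 23 had some part of a peak within 1 kb of the start. Of 97 markers of 10 other cell types, 8 had a promoter peak (8.25%, 3.63 to 15.6). Among all protein-coding genes the share was 46.1%. The set of 97 left out the markers of dendritic cells and osteoclasts. Of these, 2 of 10 (interval 2.52 to 55.6%) and 4 of 10 (12.2 to 73.8%) had a promoter peak. At any transcript start 2 and 6 had one. Of the 97 markers 73 were CpG-poor, a class of which 10.3% had a promoter peak over all genes, and 4 of these 73 had one. Of the 25 macrophage markers 22 were CpG-poor, and 17 of these 22 had one. No promoter peak was seen at the 10 fibroblast, 10 hepatocyte, 10 neuron or 8 mast cell and basophil markers. The 8 exceptions were Camp, Il7r, Ms4a1, Vpreb1, Pf4, Kdr, Actn3 and Mylpf, from 6.35-fold at Kdr to 57.8-fold at Mylpf. The part of other cells in these 8 peaks was not tested.

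Macrophage markers had strong, broad and numerous peaks. Their promoter peaks had a median width of 4904 bp against 1629 bp over all genes, and 9 of 25 were 5 kb or more, against 1.88% of all protein-coding genes. The median number of peaks within 50 kb was 14 against 3, and 18 of 25 had 10 or more, against 11% of all genes. Such counts were not particular to markers: replication-dependent histone genes had a median of 13, and 45 of 65 had 10 or more. In the strongest score decile were 13 of the 25 macrophage markers, against 16.5% of all genes. C1qc, a chain of complement C1q, had the widest (16745 bp, 96.7-fold), and the starts of C1qa and C1qb also lay within peaks. Lyz2, lysozyme M, had a peak of 12301 bp (59.4-fold), Cd14, the LPS co-receptor, one of 9277 bp (66.3-fold) and Cd68 one of 4904 bp (67.1-fold). Tyrobp (73.7-fold), Fcgr1 (76.2-fold), Fcer1g (66.7-fold) and Adgre1, the F4/80 antigen (54.6-fold), were of similar strength. Lgals3 (5.01-fold, 448 bp), Apoe (18.3-fold) and Mrc1 (16.4-fold) were the weakest 3 with a promoter peak. Csf1r, the CSF1 receptor, had its outermost annotated start inside a peak but no summit within 1 kb of it, and it had a peak of 11058 bp with the summit at another of its starts (98.5-fold). Aif1 (72.2-fold) and Fcgr3 (42.6-fold) also had a summit only at another start, with part of a peak within 1 kb of the outermost start at Aif1 and none at Fcgr3. Counting any transcript start, 21 of 25 markers had a peak, against 49.1% of all genes.

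Of 40 transcription factors of macrophages, 35 had a promoter peak (87.5%) and 26 one in the strongest decile, against 46.1% and 16.5% of all genes. Of the 40 promoters 29 were CpG-rich, a class of which 78.0% had a peak over all genes. Besides Spi1, the highest were Nfkb1 (95.4-fold), Irf5 (82.1-fold), Stat3 (78.4-fold), Mef2a (73.8-fold) and Rela (73.0-fold). The C/EBP genes were also marked, with Cebpb at 65.5-fold (6156 bp), Cebpd at 33.6-fold and Cebpa at 33.6-fold. Of the AP-1 genes, Fosl2 was at 66.5-fold, Jun at 51.7-fold and Fos had a peak of 5969 bp, while Junb and Jund had their starts inside peaks whose summits lay over 1 kb away. Egr1 (5.22-fold) and Egr2 (6.36-fold), immediate early genes, had the lowest promoter peaks of the list.

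Receptors and the machinery of digestion had promoter peaks at most genes, where the share of all protein-coding genes was 46.1% for a promoter peak, 16.5% for the strongest decile and 1.88% for 5 kb or more. A promoter peak was found at 17 of 18 Toll-like receptor and adaptor genes, with Ly96 (71.4-fold), Tlr6 (68.4-fold) and Tlr4 (59.9-fold) the strongest beside Cd14 and Tlr5 the weakest (3.42-fold, 278 bp). The remaining one, Myd88, had a peak at another start (69.2-fold). Of 25 phagocytic and adhesion receptors 20 had one, led by Sirpa (14183 bp), Fcgr1 and Tyrobp, and Clec4d, a C-type lectin, had the next widest after Sirpa (69.1-fold, 11375 bp). Of 24 lysosomal genes 22 had one and 19 were in the strongest decile. Peaks over 10 kb wide lay at Ctsd, Gpnmb (17094 bp), Ctsb (16643 bp), Lipa (16007 bp), Psap (15720 bp) and Hexa (12482 bp), and the peaks of Psap (103-fold), Glb1 (99.8-fold) and Lamp1 (97.3-fold) were the highest of this list. Of 19 genes of lipid handling 16 had a promoter peak, with the sterol-sensing receptors Nr1h2 (73.7-fold) and Nr1h3 (65.7-fold) and the lipid droplet gene Plin2 (55.4-fold, 8503 bp) strong and Ch25h low (3.07-fold). Actin and cytoskeleton genes had the largest share among the 30 lists of peaks of 5 kb or more (8 of 20), with Actg1 (116-fold), Arpc2 (113-fold) and Pfn1 (107-fold) highest. In the pathways of CSF1 and IFNγ, 19 of 20 genes had a promoter peak before any IFNγ was given: Ifngr2 (107-fold), Ifngr1 (76.1-fold), Lyn (87.3-fold), Jak1 (66.3-fold) and Jak2 (54.5-fold) were strong, and Parp1, the target of PJ34, was at 21.6-fold. Of these 20 promoters 14 were CpG-rich, a class of which 78.0% had a peak over all genes.

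Among inducible genes, the inflammatory mediators had weaker promoter peaks than the lists above. Of 24 inflammatory mediators 16 had a promoter peak, against 46.1% of all protein-coding genes. In the strongest decile were 2 of the 24, against 16.5% of all genes. None of the mediators had a promoter peak of 5 kb or more, against 1.88%, a share too low to tell apart from none with 24 genes. Their median score percentile was 55.4, against 85.0 over all genes with a promoter peak and 74.3 over all CpG-poor promoters with one. Of the 24 mediator promoters 21 were CpG-poor, and 13 of these 21 had a peak, where 10.3% of the class had one over all genes. The median number of peaks within 50 kb of the mediators was nevertheless 13. Il1b (5.95-fold), Il6 (6.08-fold), Nos2 (4.35-fold), Cxcl1 (7.26-fold) and Ptgs2 (9.65-fold) had low peaks, Il10, Il1rn, Il12a, Il12b, Ccl2, Csf3, Lif and Tnf had no summit within 1 kb of the start, and Ccl3 (48.9-fold) and Ccl4 (26.6-fold) had higher ones. Counting any part of a peak within 1 kb, 19 of 24 had one, among them Il10, Il1rn and Tnf. Il1b had 20 peaks within 50 kb and Acod1, which makes itaconate, had 19. Of 25 interferon-response genes 21 had a promoter peak, with a median score percentile of 86.8, near the 85.0 over all genes with one. In the strongest decile were 8 of the 25, against 16.5% of all genes. Among the 21 were Irf1 (73.1-fold), Socs1 (62.7-fold), Irgm1 (62.1-fold) and Irf7 (59.1-fold). Cxcl10 was at 6.53-fold and Cxcl9 had none. In antigen presentation, the class I genes B2m (99.5-fold), H2-D1 (73.3-fold) and H2-K1 (70.0-fold) had higher peaks than the class II genes H2-Aa (12.1-fold), H2-Ab1 (8.01-fold) and H2-Eb1 (5.49-fold), Cd74 (8.66-fold) and their activator Ciita (6.86-fold). Reads of H2 genes can be shared between near-identical copies, so the values of single H2 genes are uncertain.

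Of 20 genes of macrophages resident in tissues, 6 had a promoter peak (30%, 11.9 to 54.3), an interval that includes the 46.1% of all genes. None was in the strongest decile, 15 of the 20 promoters were CpG-poor, and 5 of those 15 had a peak. At any transcript start 8 of 20 had one, and the median number of peaks within 50 kb was 5.5 against 3. The highest was Id3 (30.2-fold). Marco (4.54-fold) and Siglecf (3.15-fold), of alveolar macrophages, were low, and Sall1 and Sall3, Gata6, Rarb and Timd4 had no peak within 50 kb. Of 10 dendritic cell markers 2 and of 10 osteoclast markers 4 had a promoter peak, with Tnfrsf11a, the receptor RANK (53.3-fold), and Ctsk (35.7-fold) the highest of the latter. Among housekeeping genes, 73 of 80 ribosomal protein genes and 52 of 59 respiratory chain genes had a promoter peak. Of these peaks 1 (Rps9, 12977 bp) and 0 were 5 kb or more, where 1.88% of all protein-coding genes had such a peak. CpG-rich were 72 of the 80 and 45 of the 59 promoters, a class of which 78.0% had a peak over all genes. Replication-dependent histone genes, CpG-rich in 62 of 65 cases, had a promoter peak at 51 of 65. Of 39 Hox genes 4 did, among them Hoxa4, Hoxa7 and Hoxb4, of 1092 olfactory receptor genes 4 (0.366%, 0.0999 to 0.935) and of 56 keratin-associated protein genes 0, which allows a share of up to 6.38%.

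**Figure D3:**
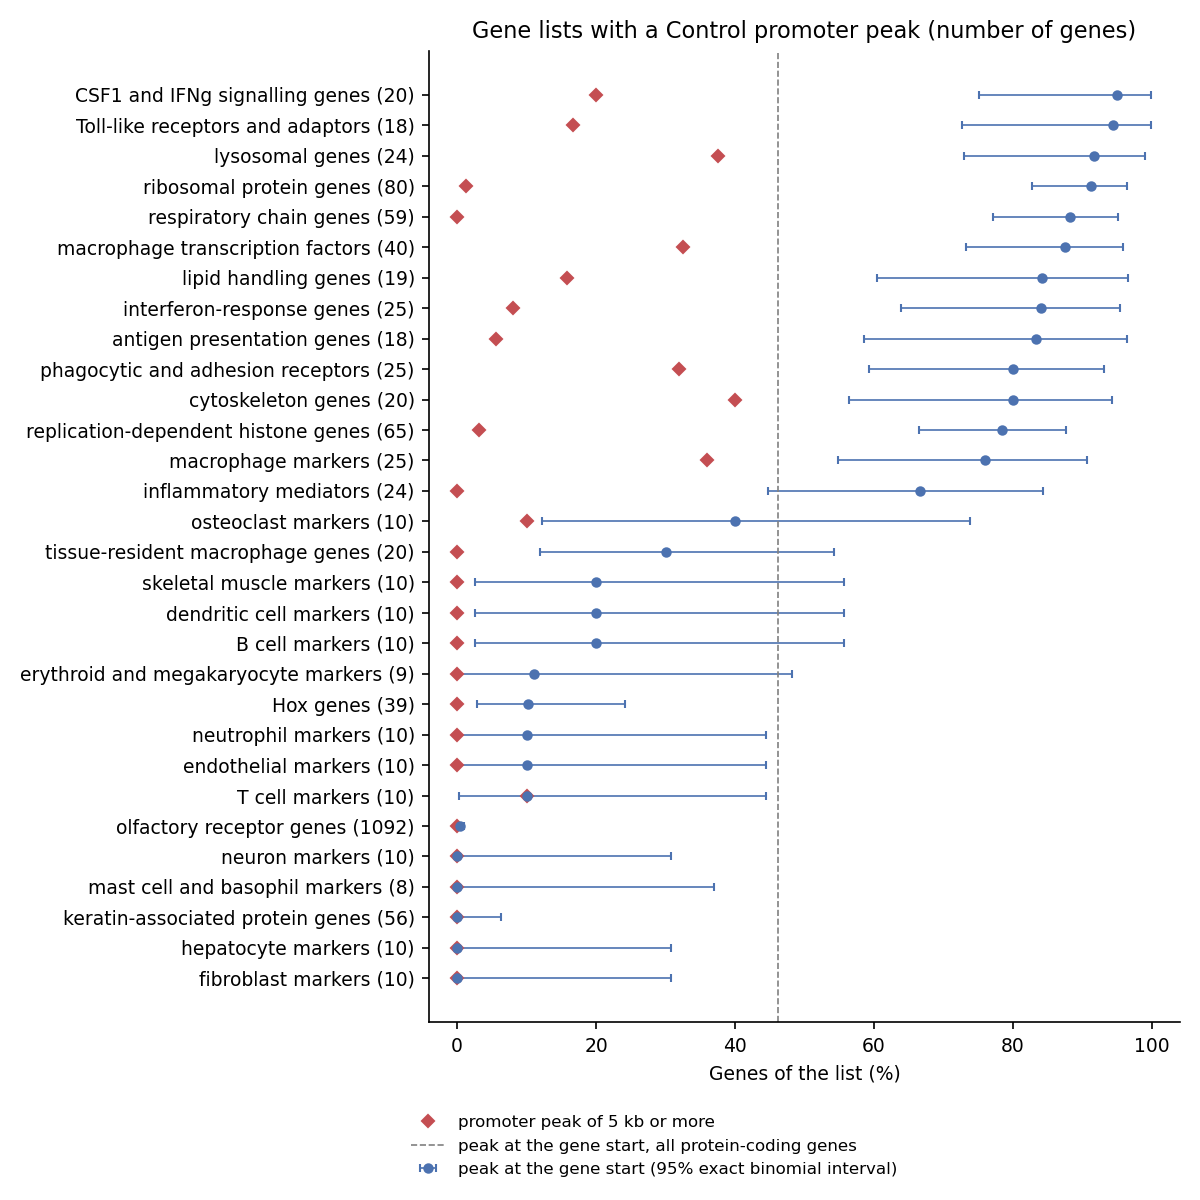
Share of genes (%) with a Control promoter peak in 30 gene lists (circles, with exact 95% binomial intervals) and with a promoter peak of 5 kb or more (diamonds); the dashed line is the 46.1% of all protein-coding genes and the number of genes stands beside each list. Lysosomal genes (91.7%) and ribosomal protein genes (91.2%) lie close together for any promoter peak and apart for peaks of 5 kb or more (37.5% and 1.25%), and tissue-resident macrophage genes (30%) lie left of the line.

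Motifs were searched for on both strands as exact letters. The patterns were PU.1 GAGGAAGT, ETS CCGGAAGT, AP-1 TGANTCA, MAF-AP-1 GCTGAGTCA, C/EBP TTGCNNAA, PU.1-IRF GGAANTGAA, IRF GAAANNGAA, RUNX TGTGGTT, MEF2 TANAAATAG, NRF1 GCGCATGCG, SP/KLF GGGGCGGG, YY1 AAGATGGC, CRE TGACGTCA, MiT/TFE TCACGTGA, NF-kB GGANTTTCC, AGATAAG for GATA factors and TATAAA for the TATA box, with 26 in all. PU.1 and ETS share the letters GGAAGT, and each MAF-AP-1 match is also an AP-1 match. A match describes the letters and is not a measured binding site. The same letters in reversed order served as a control of base composition. They do not control for pairs of letters: for example, reversed C/EBP gains a CpG, and reversed ETS, CRE and MiT/TFE lose theirs. Reversed SP/KLF keeps the GGGCGG of the motif and is no separate control.

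At gene starts, motif shares differed between promoters with and without a peak also within the CpG-rich and the CpG-poor class, in which CpG content can still differ. Within 100 bp of the start, the ETS motif was in 4.32% of all protein-coding promoters. Among CpG-rich promoters it was in 9.63% of the 7842 with a peak and 1.35% of the 2217 without, a ratio of 7.12 (95% interval 4.96 to 10.2). The ratio was 4.78 for YY1 (3.23 to 7.09), 3.11 for NRF1 (2.12 to 4.57), 2.97 for MiT/TFE, the E-box of lysosomal gene regulators (1.72 to 5.12), and 2.06 for CRE (1.48 to 2.87). PU.1-IRF, at 1.12% against 0.226%, gave 4.98 (2.02 to 12.2). For SP/KLF, at 30.3% with and 31.4% without a peak, the interval of the ratio included 1 (0.964, 0.899 to 1.03), and the TATA letters were less frequent (0.596, 0.473 to 0.751). Among CpG-poor promoters the PU.1 motif was in 8.75% of the 903 with a peak and 2.72% of the 7872 without (3.22, 2.51 to 4.13), and the ratio was 4.36 for MiT/TFE (1.87 to 10.2), 3.54 for ETS (1.87 to 6.72), 2.46 for PU.1-IRF (1.68 to 3.596), 2.36 for SP/KLF (1.75 to 3.18), 2.18 for NF-kB (1.31 to 3.64) and 1.65 for IRF (1.34 to 2.03). These intervals are not adjusted for the 26 motifs.

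**Figure D4:**
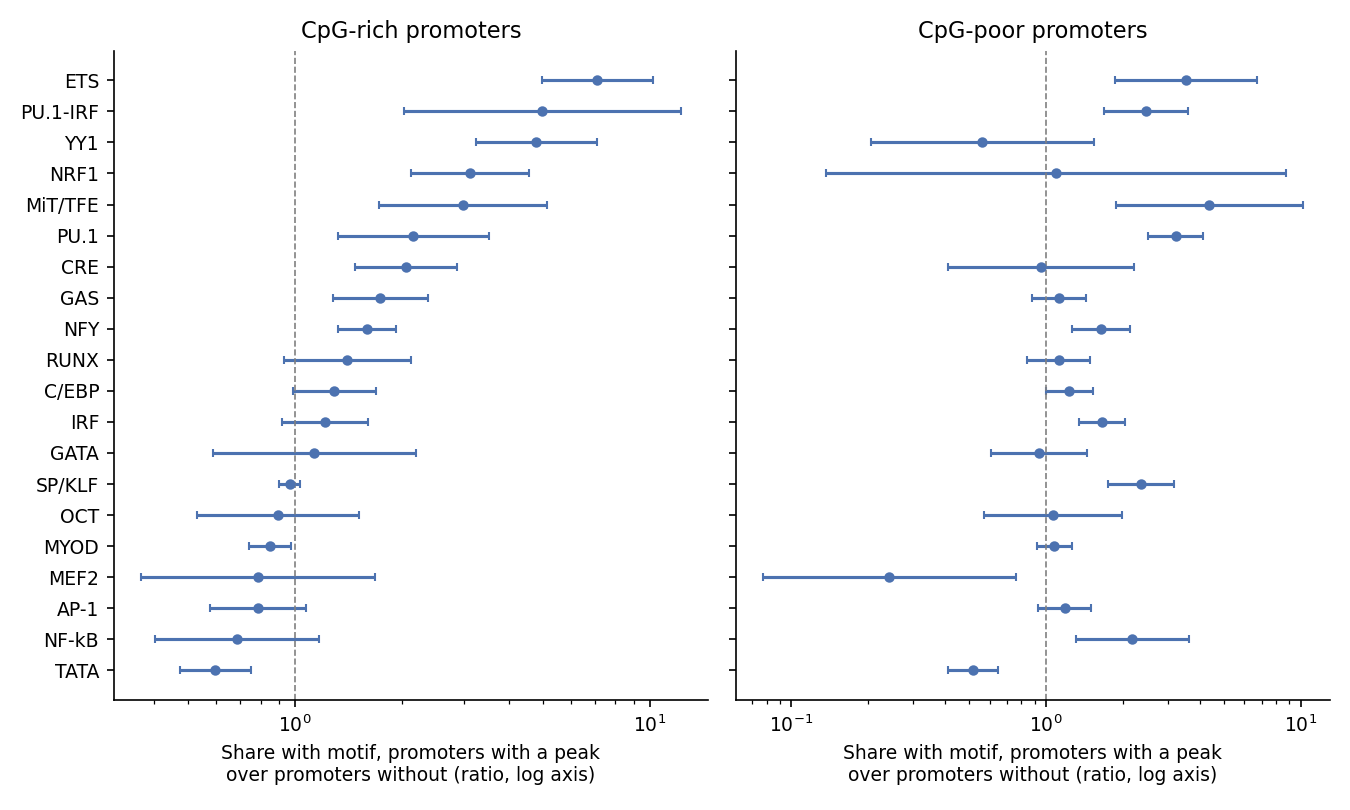
Share of promoters with a motif within 100 bp of the start, those with a Control peak over those without (ratio, log axis, 95% intervals), in CpG-rich and CpG-poor promoters, for 20 of the motifs. ETS, YY1, NRF1 and MiT/TFE lie to the right of 1 in CpG-rich promoters, and PU.1 lies to the right of 1 in both.

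Motifs of known regulators were also counted in gene lists. The MiT/TFE motif was within 100 bp of the start in 4 of 24 lysosomal genes, among them Ctsb, Hexa and Lamp1, and in 0.945% of all protein-coding promoters. The PU.1 motif was there in 4 of 25 macrophage markers (C1qc, Ctss, Itgb2 and Tyrobp), with 2.28% over all promoters. The IRF motif was there in 8 of 25 interferon-response genes, among them Ifit1, Isg15 and Gbp2, with 4.79% over all promoters, but it was also there in 12 of 80 ribosomal protein genes.

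Around the summits themselves, distal and promoter peaks differed in composition. The median GC content of the 200 bp at the summit was 65.0% in promoter peaks, 46.5% in distal peaks and 41.5% in windows taken every 10 kb of the genome. SP/KLF was in 8.02% of promoter and 1.14% of distal windows (ratio of distal to promoter 0.143, 0.127 to 0.161), and NRF1 in 0.200% and 0.0484% (0.242, 0.126 to 0.462). AP-1 was in 2.18% of promoter and 5.65% of distal windows (2.60, 2.27 to 2.98), C/EBP in 4.27% and 7.35% (1.72, 1.56 to 1.90) and PU.1 in 0.831% and 1.30% (1.57, 1.25 to 1.97). For AP-1 and PU.1 the reversed letters gave ratios of 2.30 and 1.43, close to those of the motifs. The reversed letters of SP/KLF (0.150) and NRF1 (0.106) were likewise rarer in distal peaks. The NRF1 value rests on 2 distal and 6 promoter windows (interval 0.0213 to 0.523), and reversal adds a CpG to its letters. The reversed letters of C/EBP gave 0.885, but they hold a CpG that the motif lacks, so the contrast with 1.72 is not matched for CpG. Against genome windows the ratio of distal summits was 1.14 for PU.1 (1.03 to 1.26), 0.943 for AP-1 (0.900 to 0.988) and 0.778 for C/EBP (0.747 to 0.810). The reversed letters gave 1.10 for PU.1 (1.005 to 1.21), close to the motif, 1.06 for AP-1 and 1.14 for C/EBP. Within 250 bp of the summit the ratio of the motif was 2.55 for PU.1 and 1.32 for AP-1, which turned the direction of AP-1. Without matches in repeats AP-1 was at 1.03, with an interval that includes 1 (0.982 to 1.09).

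The profile of matches by distance had its maximum beside the summit and not at it. In distal peaks the PU.1 motif occurred 0.0508 times per kb in the 50 bp nearest to the summit, 0.325 times per kb at 200 to 250 bp, and 0.0678 times per kb at 800 to 1000 bp, so that the maximum was 4.79 times the outer level. In the strongest 25% of distal peaks the maximum was 0.379 per kb. AP-1 had its maximum of 0.755 per kb at 250 to 300 bp, 2.30 times the outer level, and C/EBP its maximum of 0.613 per kb at 250 to 300 bp, 1.42 times the outer level. RUNX and MEF2 had theirs at 250 to 300 bp and 300 to 350 bp. The reversed PU.1 letters stayed between 0.0623 and 0.0841 per kb.

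**Figure D5:**
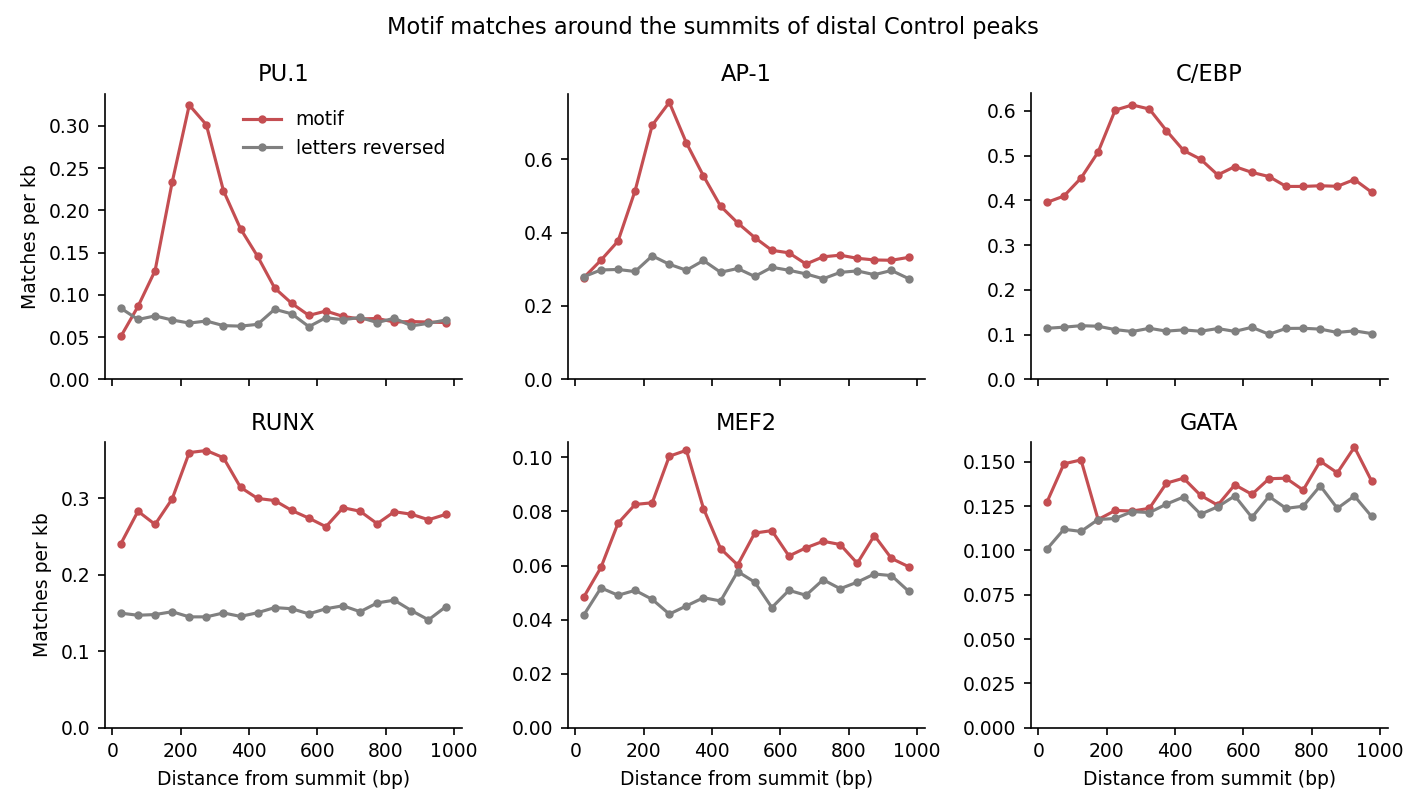
Matches per kb of 6 motifs in 50 bp bins by distance from the summit (bp) of 33057 distal Control peaks (red) and of the same letters reversed (grey). PU.1, AP-1, C/EBP, RUNX and MEF2 have a maximum 200 to 350 bp from the summit and a low value at it, and GATA has none there.

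A band 150 to 350 bp from the summit was then set against one of equal length at 800 to 1000 bp in the 29996 peaks over 1 kb from every start. The PU.1 motif was in 10.5% of the near bands and 2.67% of the far ones (ratio 3.95, 3.66 to 4.26), and its reversed letters in 2.69% and 2.65% (1.01, 0.921 to 1.12). MAF-AP-1 gave 3.18 (2.73 to 3.72), AP-1 1.87 (1.80 to 1.94), NF-kB 1.74 (1.55 to 1.957), PU.1-IRF 1.50 (1.41 to 1.60), MEF2 1.45 (1.33 to 1.59), C/EBP 1.33 (1.28 to 1.38), IRF 1.31 (1.26 to 1.36) and RUNX 1.24 (1.19 to 1.29). The GATA motif was less frequent near the summit (0.862, 0.806 to 0.923). Other motifs of factors from other lineages differed from it. The letters of MYOD (1.171) and OCT (1.162) had lower bounds above 1, and the interval of HNF1 (0.889) included 1. Among promoter motifs, ETS (2.47), NRF1 (2.33) and CRE (2.08) had higher ratios than AP-1, whereas YY1 (0.840) and TATA (0.918) were below 1. Ratios above 1 were therefore not limited to motifs of macrophage factors. The lower bound was above 1 for 20 of 26 motifs and for 7 of the 26 reversed ones. Among the 7 were IRF (1.14, 1.10 to 1.18) and AP-1 (1.08, 1.03 to 1.128), so that part of such ratios is also seen for letters of the same composition. SP/KLF was among them too (1.90 reversed, 1.82 as written), but its reversed letters keep the GGGCGG of the motif and cannot serve as a control. This band was chosen after the profile had been seen.

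Strong Control peaks were overlapped in the treated lists more often than weak ones. All 4354 peaks of the strongest decile were overlapped in all 3 other lists (lower limit 99.9%), 60.5% of the fifth decile and 10.0% of the lowest (9.14 to 11.0). Where a peak within 1 kb counted, the lowest decile was at 38.9%. At equal rank promoter peaks were found again more often than peaks over 1 kb from every start: in the fifth decile 86.2% against 54.9%, and in the lowest 17.8% against 9.61%. Of the lowest decile, 28.2% were overlapped in IFNγ, 38.9% in PJ34 and 28.5% in IFNγ and PJ34. The treated lists differ from Control and from each other in treatment and in sequencing, which cannot be told apart here.

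Control had the most peaks of 5 kb or more. Its 939 peaks of 5 kb or more compared with 542 in IFNγ, 774 in PJ34 and 579 in IFNγ and PJ34, and its median fold enrichment was 6.12 against 5.51, 5.26 and 6.32. All 939 were overlapped in every other list, but 65.5% were met by more than 1 peak in IFNγ, 52.9% in PJ34 and 69.0% in IFNγ and PJ34, and 84.4%, 91.6% and 82.4% of their bases lay under peaks there. The Mcl1 peak was met by 7, 4 and 5 peaks in these lists and the Sirpa peak by 7, 1 and 3. Macrophage markers with a promoter peak numbered 19 of 25 in Control and 24, 20 and 21 in the lists of IFNγ, of PJ34 and of both, where all genes with one numbered 10103, 9829, 10087 and 9900 of 21911. Cd68 shows how such a count can differ without a peak being absent: its Control peak, of the strongest decile, was overlapped in every list, but no PJ34 summit lay within 1 kb of its start.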

How the data were processed

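H3K27ac ChIP-seq and input DNA were sequenced in BMDMs in 4 conditions with 2 replicates each (8 ChIP and 8 input samples), grouped by their titles. According to the methods, the authors aligned reads to mm10 with Bowtie, filtered them with Samtools and Picard, ran MACS on every replicate against its input with a relaxed p of 0.01, and kept peaks found in both replicates. It is not given in the sources used here whether the values of a final peak come from pooled reads. Each deposited list gives a score (whole numbers, 10 to 1000 in Control), a fold enrichment (a ratio over local background), and the −log10 p-value and −log10 q-value deposited by the authors. Inputs entered only through the peak caller. Depth is not given.

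Control peaks were ranked by score (ties by −log10 p) and placed by summit against the 21911 protein-coding genes of GENCODE M21 on the same build. All peak ends lay within its chromosomes. Overlap with another list meant 1 bp or more. Shares have exact Clopper-Pearson intervals, ratios of shares log-scale intervals, both at 95% and for counting error only. Since each condition has 1 list, no test and no p-value could be had. Motifs were exact letter matches within 100 bp of summits or starts, beside windows every 10 kb of autosomes and X. Functions were tested on simulated data (Python 3.11.15, numpy 2.4.6, pandas 2.3.3, scipy 1.17.1).

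Named were the 10 strongest promoter and distal peaks, the 10 broadest peaks, the 10 richest stretches, the 10 genes with most nearest peaks and members of 30 fixed gene lists. Rules, lists and members were chosen with earlier results of these data known. Genes with most peaks within 50 kb, the strongest peaks over 1 kb from every start, the 150 to 350 bp band, the CpG-matched motif shares and the motif shares of gene lists were added after the values were seen. Of the markers and receptors asked for, Ahsp and Clec7a were not matched. Some list members are counted but not reported by name here. Alternatives tried were the promoter distance, every transcript start, a q-value limit of 0.01, ranking by fold enrichment, window size, repeats and the overlap rule.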

Additional observations from a re-analysis of the deposited data

How the results depend on the processing

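Of 83 alternatives to 21 results, 42 stayed within the counting interval of the reported value, 39 moved out of it and 2 changed direction. The promoter share of all peaks was 21.0% with a limit of 500 bp, 28.5% with 2.5 kb and 27.3% with every transcript start. In the strongest decile these settings gave 63.4%, 77.0% and 81.2%, and in the lowest decile 3.29%, 11.9% and 6.27%, and the strongest decile stayed above the lowest. Genes with a promoter peak were 41.3%, 49.3% and 49.1%, and 48.5% where any part of a peak within 1 kb counted (added after seeing the data). CpG-rich promoters with a peak were 72.01% at 500 bp and 79.6% at 2.5 kb, and CpG-poor ones 7.59%, 15.2% and, with every transcript start, 16.2%. Markers of other cell types were at 3.09% at 500 bp, and macrophage markers at 92.0% where any part of a peak counted. The width ratio was 2.14 at 2.5 kb, and summits downstream of the start were 76.3% at 500 bp and 72.4% at 2.5 kb.

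Against genome windows, the AP-1 motif in distal peaks changed direction, to 1.32 within 250 bp of the summit and 1.03 without repeats. The interval of the latter includes 1 (0.982 to 1.09). In the higher-scoring 50% of peaks AP-1 was at 0.860. PU.1 was at 2.55 within 250 bp and 1.49 without repeats. C/EBP was at 0.919, 0.960 without repeats and 0.740 in the higher-scoring 50%. Over promoter peaks, SP/KLF was at 0.204 in the higher-scoring 50%, 0.124 without repeats and 0.101 for distal peaks over 1 kb from every start (added), and NRF1 at 0.115 within 250 bp. The wider window takes in more of the band from 150 bp on, where the profile is high. The cause of the other changes was not tested.

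The median number of peaks near macrophage markers was 4 within 10 kb (1 for all genes) and 18 within 100 kb (5 for all genes). Asking for an overlap of 50% of the Control peak left 96.5% of the strongest decile and 6.73% of the lowest found in all 3 other lists. The lowest decile was at 38.9% within 1 kb and 13.3% when ranked by fold enrichment. Peaks with q under 0.01 were 98.6% of the list.

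No paired analysis was possible because the 2 replicates of a condition enter 1 joint list. Leaving out 1 replicate was not run either, as no list of a single replicate was used here. How many weak peaks are listed is limited by the depth, which is unknown, and by the call in both replicates.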
